A study of Mus musculus with 9 samples.

Results

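The genes described here copy DNA and divide cells. They are 40 genes chosen by name, 18 that make or copy DNA and 22 that carry out mitosis. Earlier results of these data were known when they were chosen. Each was read from a probe set annotated to that gene and no other, and where a gene had several, the brightest on average over the 9 arrays was used. In this way 39 of the 40 were measured, among 18194 genes in all. Ccnb1, the gene of cyclin B1, had no probe set annotated to it alone, and its signal is not described. Tyms, the thymidylate synthase gene, stayed below 4.87 on the log2 scale in every group with each of its probe sets. That level is the 40th percentile of all gene means and is called dim below. The other 38 lay above it, and no gene was removed for a low value.

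RNA came from tibial shafts of CD-1 wild-type mice aged 16 to 18 weeks. The groups were virgin mice, mice at lactation day 12, and mice 7 days after weaning was forced on lactation day 12, called postlactation here. Each group had 3 arrays, and the nursing mice had litters of 8 to 13 pups. All shafts were stripped of periosteum and marrow and digested in rounds of collagenase with trypsin and of EDTA, and the bone left was powdered. The aim was RNA enriched in osteocytes, the cells buried in bone matrix. Group names were taken from the titles. The source field of the postlactation arrays reads virgin, against their titles, and a sentence on extraction speaks of femurs. No label says that each array was a separate mouse, so the p-values describe spread among these samples, which may be technical.

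Before a cell copies its genome, replication origins are licensed by loading the Mcm helicase with the help of Cdc6 and Cdt1. Cyclin E and the E2F factors open S phase, and enzymes such as ribonucleotide reductase supply the DNA building blocks. Mitosis genes come up later, when Cdk1 with cyclins A and B, the Aurora and polo-like kinases, spindle motors and centromere proteins separate the chromosomes. Osteocytes are regarded as cells that no longer divide, whereas blood-forming cells of bone marrow divide often. Promoters of replication genes often carry E2F sites. Those of many mitosis genes carry the cell cycle homology region, CHR, bound by the DREAM complex, with CCAAT boxes upstream.

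Promoter windows were taken from RefSeq on build GRCm38.p6, and 33 of the 40 genes matched an entry. Each window ran from 250 bases before to 50 bases after the start of that entry, which need not be the outermost start of the gene. Below are the windows of the replication genes Cdc6 and Rrm2 and the mitosis genes Mki67 and Birc5, the pairs with the smallest p after weaning among those with an entry. Capitals mark the motifs searched on both strands.

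Cdc6, chr11:98907901-98908200, plus strand: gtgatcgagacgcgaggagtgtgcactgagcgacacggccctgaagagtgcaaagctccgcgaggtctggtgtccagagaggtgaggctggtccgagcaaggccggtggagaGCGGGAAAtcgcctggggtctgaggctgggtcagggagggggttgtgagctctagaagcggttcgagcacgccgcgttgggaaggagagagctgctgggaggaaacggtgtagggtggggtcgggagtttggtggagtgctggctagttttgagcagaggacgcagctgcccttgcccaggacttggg
Rrm2, chr12:24708004-24708303, plus strand: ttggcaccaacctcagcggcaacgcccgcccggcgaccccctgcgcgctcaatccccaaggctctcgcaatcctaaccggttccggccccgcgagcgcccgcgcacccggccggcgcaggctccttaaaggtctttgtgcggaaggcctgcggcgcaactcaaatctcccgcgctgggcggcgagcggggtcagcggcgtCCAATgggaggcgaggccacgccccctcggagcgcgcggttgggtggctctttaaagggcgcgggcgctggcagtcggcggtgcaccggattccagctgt
Mki67, chr7:135716330-135716629, minus strand: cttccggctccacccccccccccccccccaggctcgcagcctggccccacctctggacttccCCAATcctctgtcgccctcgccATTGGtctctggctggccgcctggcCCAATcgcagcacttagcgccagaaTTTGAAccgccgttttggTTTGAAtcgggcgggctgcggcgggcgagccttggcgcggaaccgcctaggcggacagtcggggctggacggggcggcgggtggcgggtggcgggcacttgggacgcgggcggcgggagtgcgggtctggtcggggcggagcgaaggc
Birc5, chr11:117848987-117849286, plus strand: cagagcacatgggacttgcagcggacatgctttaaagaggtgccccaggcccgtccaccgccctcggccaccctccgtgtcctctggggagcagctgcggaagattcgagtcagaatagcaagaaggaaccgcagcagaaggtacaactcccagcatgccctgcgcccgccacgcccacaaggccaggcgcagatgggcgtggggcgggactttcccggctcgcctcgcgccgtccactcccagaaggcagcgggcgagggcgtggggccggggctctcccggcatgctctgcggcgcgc

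The motifs were TTTCCCGC, TTTCGCGC, TTTGCCGC or TTTGGCGC for E2F, TTTGAA for CHR, and CCAAT. None of these letters overlapped between motifs in the printed windows. Cdc6 held an E2F match on the opposite strand at -138 to -131 from the entry's start. The RefSeq span of Cdc6 begins at 98907709, so this window lies within the gene. The Mki67 start used also lies inside the span of its gene, which reaches 135716450. Rrm2 held CCAAT at -50 to -46. Mki67 held CHR matches at -116 to -111 and -98 to -93, with CCAAT at -188 to -184 and -141 to -137, and, on the opposite strand, -166 to -162. The Birc5 window held none of these letters.

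Motif matches were counted apart in replication and mitosis genes. An E2F match was in 6 of 16 windows of 15 replication genes (37.5%) and in 1 of 18 mitosis windows (5.56%), against 2.26% of all 32851 windows. A CHR match was in 13 of the 18 mitosis windows (72.2%) and in 2 of the 16 replication windows (12.5%), against 17.9% of all windows. CCAAT was in 16 mitosis windows (88.9%) and 10 replication windows (62.5%), against 37.4% overall. All 13 mitosis windows with CHR also held CCAAT, a pair found in 6.95% of all windows. These counts describe letters in the windows, not bound sites, and the 2 Mcm7 windows are of the same gene. The 18 mitosis windows include that of Ccnb1, whose signal was not measured.

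The 9 arrays formed 3 sets of arrays that share exactly equal values, with the groups equally represented. Virgin 1, lactation 3 and postlactation 1 made up set 1. Virgin 2, lactation 2 and postlactation 3 made up set 2, and the remaining arrays, virgin 3, lactation 1 and postlactation 2, were set 3. The median signal of an array was lowest in set 1 (4.32 to 4.34) and highest in set 2 (4.80 to 4.82), with 4.57 for set 3, so each comparison was also fitted with the array set as a block. In what follows 3 values in a row are those of sets 1, 2 and 3, on the log2 scale of the deposited signals, where a difference of 1 is a 2-fold change. Of 11 osteocyte markers 9 lay above the dim level, while Fgf23 and Wnt16 were dim in all groups. Precision is limited by there being 3 arrays a group. The virgin 1 array differed from its group, with the osteocyte gene Sost at 8.14 against 13.39 and 13.55 in the other virgin arrays.

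The comparison of postlactation with lactation asks what differs in this bone RNA once suckling has ended. Genes of DNA replication and of mitosis were lower after weaning. All 39 measured members had a lower mean in postlactation, with a median log2 difference of -1.02 over 18 replication genes and -0.62 over 21 mitosis genes, against 0.00 over all genes. Cdc6, Rrm2 and Cdt1 fell by the test without a block, limma with Benjamini-Hochberg adjustment over all genes at 0.05. In that test 3 of 39 members fell, where 0.693% of all genes fell. With the array set as a block 23 of 39 fell, 15 of replication and 8 of mitosis, where 2.99% of all genes and 4.75% of genes above the dim level fell.

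The same direction was seen within the sets. Of the 39 members, 36 were lower in postlactation in all 3 sets (92.3%), as were 16.1% of all genes and 24.4% of those above the dim level. A gene with equal values in a set cannot count here, which lowers these shares. Between these 2 groups 42.4% of probe sets were equal in set 2 and 36.1% in set 3. The postlactation and lactation values did not overlap in 27 members, 16 of replication and 11 of mitosis, each lower after weaning. Of all genes 4.38% were separated in that way, and 6.8% of those above the dim level. The postlactation mean was more than 2-fold lower in 11 members (28.2%), against 1.43% of all genes and 2.25% of those above the dim level.

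**Figure D1:**
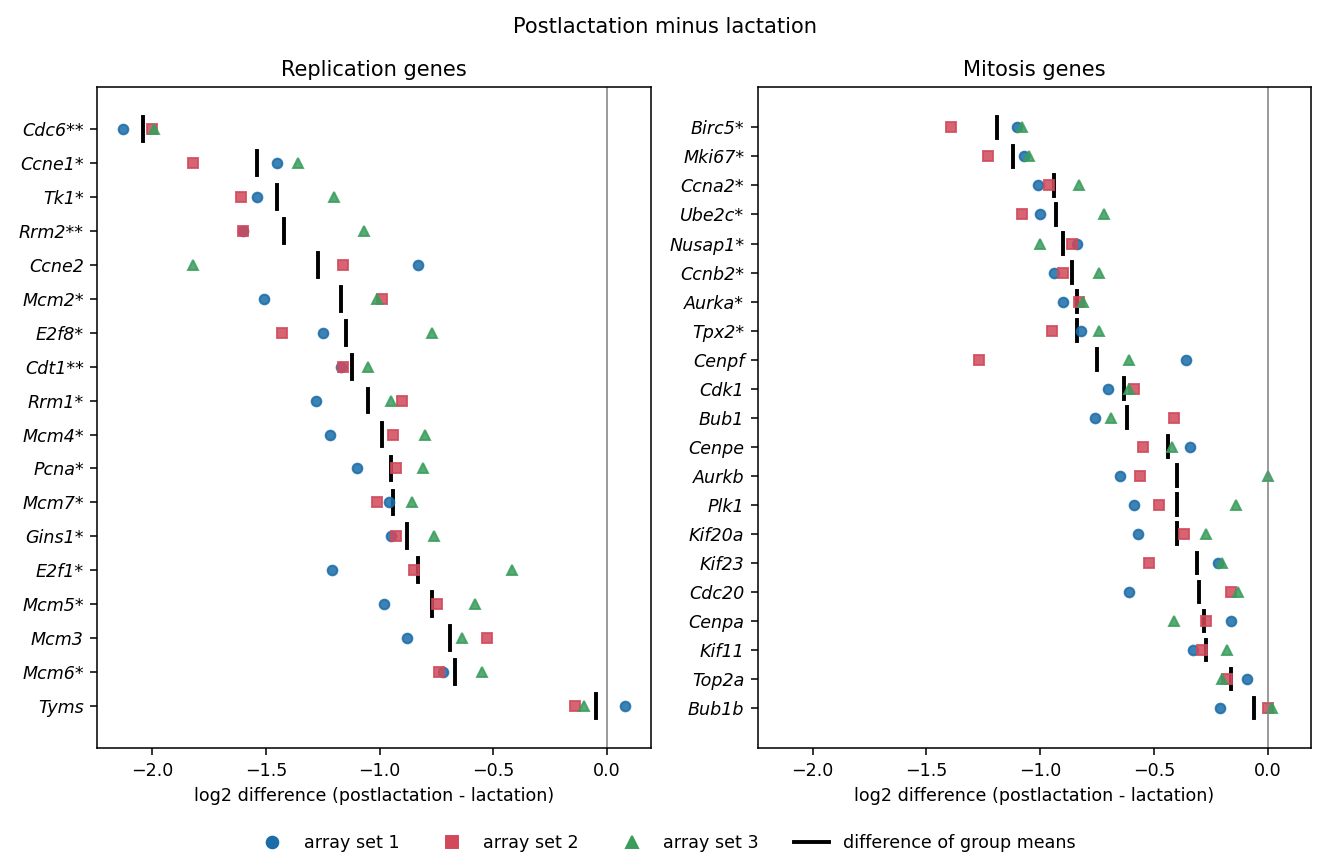
Log2 difference of postlactation minus lactation for each of the 18 replication genes (left) and 21 mitosis genes (right), with a coloured point for each array set and a black bar for the difference of group means. A double asterisk marks an adjusted p under 0.05 without a block, a single asterisk one with the array set as a block only; all 39 bars lie below 0, from -2.04 for Cdc6 to -0.05 for Tyms.

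In each set the difference after weaning was larger for replication genes than for mitosis genes by the median. The median difference was -1.19, -0.97 and -0.84 for replication and -0.65, -0.56 and -0.61 for mitosis. The gap between these medians was -0.54, -0.41 and -0.22, and it was not tested. In bulk samples, fewer cells of a type and less RNA per cell cannot be told apart.

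Ribonucleotide reductase and thymidine kinase, which supply deoxynucleotides, were lower after weaning. Rrm2, the small subunit of the reductase, read 10.45, 10.92 and 10.38 in virgin, 11.07, 11.45 and 10.79 in lactation, and 9.47, 9.85 and 9.72 in postlactation arrays. Every lactation array was well above every postlactation array, and virgin arrays lay between them with some overlap into lactation. Rrm2 fell 2.68-fold, a log2 difference of -1.42 (SE 0.24, adjusted p = 0.0192 by limma and 0.00273 with the set block). Rrm1, the large subunit, read 8.57, 9.16 and 8.87 in virgin, 8.97, 9.36 and 9.40 in lactation, and 7.68, 8.46 and 8.45 in postlactation. Its groups after weaning and in lactation were apart, and Rrm1 fell 2.06-fold with the set block (SE 0.11, adjusted p = 0.00633, and 0.194 without the block). Tk1, the thymidine kinase of dividing cells, read 8.52, 8.59 and 7.37, then 8.88, 9.28 and 8.10, then 7.34, 7.68 and 6.90. Set 3 was the lowest in each group, all lactation arrays were above all postlactation arrays, and Tk1 fell 2.73-fold with the set block (SE 0.14, adjusted p = 0.00411, and 0.225 without). Tyms was dim, with means of 3.95, 3.87 and 3.82 in virgin, lactation and postlactation, and no fold is given.

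Among the licensing genes was Cdc6, with the largest difference of the 39 members. Cdc6, which loads the Mcm helicase, read 8.07, 7.97 and 7.07 in virgin, 8.08, 8.64 and 7.83 in lactation, and 5.96, 6.63 and 5.84 in postlactation. The lactation and postlactation arrays were far apart, and the differences within sets lay between -2.13 and -1.99. Cdc6 fell 4.12-fold, a log2 difference of -2.04 (SE 0.33, adjusted p = 0.0134 by limma and 0.00322 with the set block). Cdt1, its partner in loading, read 10.02, 9.98 and 9.60, then 10.38, 10.56 and 10.27, then 9.22, 9.40 and 9.22. The 3 groups of Cdt1 did not overlap at all, lactation being highest and postlactation lowest. Cdt1 fell 2.18-fold, a log2 difference of -1.12 (SE 0.20, adjusted p = 0.0278 and 0.00272 with the set block).

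All 3 calls were kept when a single virgin array was left out, but not when certain lactation or postlactation arrays were. Without a block, adjusted p ran from 0.0052 without virgin 3 to 0.087 without postlactation 2 for Cdc6, whose call also ended without lactation 2 (0.074) and postlactation 1 (0.0762). For Rrm2 it was 0.114 without lactation 2, 0.0739 without lactation 3, 0.109 without postlactation 1 and 0.0925 without postlactation 2. For Cdt1 the call ended on leaving out any lactation or postlactation array, with adjusted p from 0.0638 to 0.177. Log2 differences stayed at -1.82 or lower for Cdc6, -1.25 or lower for Rrm2 and -1.05 or lower for Cdt1. The 23 calls of the set block were 8 without lactation 3, 10 without lactation 1 or lactation 2, 11 without postlactation 3 and 13 without postlactation 1.

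The Mcm genes encode the 6 subunits of the replicative helicase. Mcm2 read 9.10, 9.52 and 8.93 in virgin, 9.79, 10.05 and 9.56 in lactation, and 8.28, 9.05 and 8.55 in postlactation. Lactation was above both other groups in every array, and Mcm2 fell 2.25-fold with the set block (SE 0.12, adjusted p = 0.00498, and 0.0936 without). Mcm4, Mcm5, Mcm6 and Mcm7 also fell with the set block, by 1.98-fold, 1.70-fold, 1.59-fold and 1.92-fold (adjusted p = 0.0151, 0.0173, 0.0137 and 0.00206). Mcm3 was 1.61-fold lower and just missed (adjusted p = 0.054 with the block), with 8.69 in postlactation set 2 above 8.51 in lactation set 3. Pcna, the sliding clamp of DNA polymerase, fell 1.93-fold and Gins1, of the helicase complex, 1.84-fold with the set block (adjusted p = 0.00508 and 0.00871). In all, 9 of 10 licensing and replisome genes fell with the set block and 2 without it, where 2.99% and 0.693% of all genes fell. All 10 were lower in each set, as were 16.1% of all genes and 24.4% of those above the dim level.

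Regulators of S phase entry were lower as well. Ccne1, cyclin E1, read 6.75, 7.80 and 7.16 in virgin, 7.30, 8.35 and 7.87 in lactation, and 5.85, 6.53 and 6.51 in postlactation. All lactation arrays were above all postlactation arrays, and Ccne1 fell 2.92-fold with the set block (SE 0.12, adjusted p = 0.00232, and 0.0906 without). E2f8, a repressor of the E2F family that is itself made in S phase, read 9.20, 8.62 and 8.33, then 9.57, 9.17 and 8.76, then 8.32, 7.74 and 8.00. Set 1 was highest in each group here, unlike for Ccne1, and E2f8 fell 2.22-fold with the set block (adjusted p = 0.0104). Ccne2, cyclin E2, read 7.29, 6.68 and 6.18, then 6.33, 7.24 and 6.84, then 5.50, 6.07 and 5.02. Its differences after weaning were uneven, -0.83, -1.16 and -1.82, and neither fit called it (2.42-fold lower, adjusted p = 0.27 and 0.116 with the block). E2f1, the activator of S phase genes, fell 1.77-fold with the set block (adjusted p = 0.0379), its sets at -1.21, -0.85 and -0.42.

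**Figure D2:**
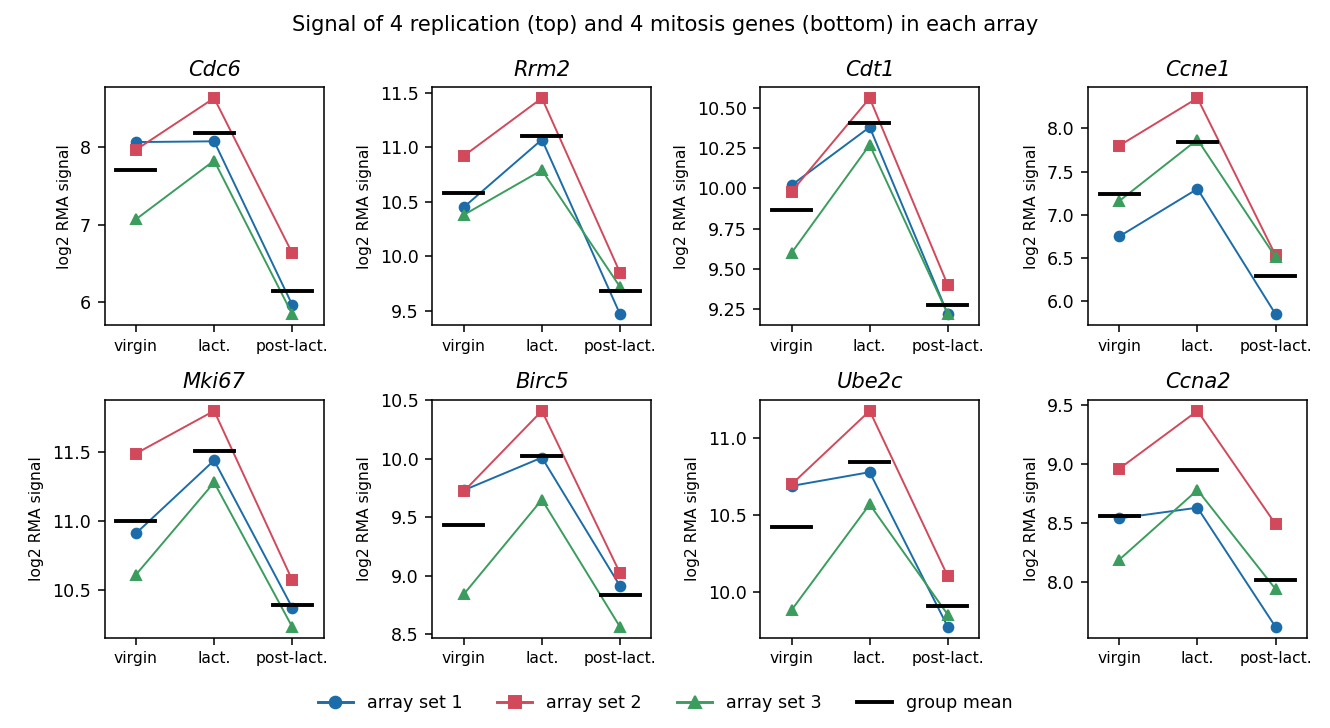
Log2 signal of Cdc6, Rrm2, Cdt1 and Ccne1 (top) and Mki67, Birc5, Ube2c and Ccna2 (bottom) in each array, with arrays of a set joined by a line and the group mean as a black bar. In all 8 panels the postlactation mean is the lowest and the lactation mean the highest.

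Among mitosis genes, Birc5 and Mki67 had the largest differences. Mki67, the Ki-67 protein that coats mitotic chromosomes and is used to mark dividing cells, read 10.91, 11.49 and 10.61 in virgin, 11.44, 11.80 and 11.28 in lactation, and 10.37, 10.57 and 10.23 in postlactation. Postlactation lay below both other groups in every array. Mki67 fell 2.17-fold with the set block (SE 0.11, adjusted p = 0.00439, and 0.117 without). Birc5, survivin of the chromosomal passenger complex, read 9.73, 9.72 and 8.84, then 10.01, 10.41 and 9.65, then 8.91, 9.02 and 8.56. Virgin and postlactation values overlapped through virgin 3, while lactation and postlactation did not, and Birc5 fell 2.28-fold with the set block (SE 0.13, adjusted p = 0.00691, and 0.167 without). Top2a, the topoisomerase that untangles chromosomes, stayed at 10.20, 10.48 and 9.74, then 10.07, 10.46 and 9.80, then 9.99, 10.28 and 9.60. The differences between sets in Top2a were larger than those between groups, and its log2 difference of -0.16 (SE 0.27) was not called.

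Cyclins and anaphase genes gave 3 falls among 5 with the set block, where 2.99% of all genes fell, and 0 without it. Ube2c, the ubiquitin-conjugating enzyme of the anaphase-promoting complex, read 10.69, 10.70 and 9.88, then 10.78, 11.18 and 10.57, then 9.77, 10.10 and 9.85. Virgin 3 was as low as the postlactation arrays, and all lactation arrays were higher. Ube2c fell 1.91-fold with the set block (adjusted p = 0.0376), as did Ccna2, cyclin A2, by 1.91-fold (adjusted p = 0.0181), and Ccnb2, cyclin B2, by 1.82-fold (adjusted p = 0.0491). Ccna2 read 8.54, 8.96 and 8.19, then 8.63, 9.45 and 8.78, then 7.62, 8.49 and 7.94. Its lowest lactation array was just above its highest postlactation array. Cdk1, the kinase that these cyclins activate, read 9.25, 9.09 and 8.50, then 9.15, 9.42 and 9.01, then 8.45, 8.84 and 8.40. Cdk1 was 1.55-fold lower without overlap and was not called (adjusted p = 0.75 and 0.0818 with the block). Cdc20, which activates the anaphase-promoting complex, differed by -0.30 (SE 0.26) and was not called.

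Mitotic kinases and checkpoint genes were mixed. Aurka, the Aurora A kinase of spindle poles, read 7.78, 7.93 and 7.05, then 8.02, 8.25 and 7.60, then 7.13, 7.42 and 6.79. Within sets Aurka differed by almost the same amount, -0.90, -0.83 and -0.81, and it fell 1.79-fold with the set block (SE 0.09, adjusted p = 0.00645, and 0.533 without). Bub1, a spindle checkpoint kinase, read 8.40, 8.22 and 7.59, then 8.16, 8.39 and 7.99, then 7.40, 7.98 and 7.29. Its lowest lactation value only just exceeded its highest postlactation value, and Bub1 was 1.54-fold lower without a call (adjusted p = 0.119 with the block). Plk1, polo-like kinase 1, and Aurkb, Aurora B, each differed by -0.40 (SE 0.39) without a call. Aurkb was at 6.14 in all 3 arrays of set 3, a tie of the kind that defines the sets. Bub1b, the checkpoint protein BubR1, differed by -0.06 (SE 0.21), with sets at -0.21, 0.00 and 0.02.

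Spindle genes gave 2 falls among 5 with the set block, where 2.99% of all genes fell, and 0 without it. Nusap1, which bundles spindle microtubules, read 8.90, 9.20 and 8.32, then 8.82, 9.51 and 8.85, then 7.98, 8.64 and 7.84. Tpx2, which activates Aurora A on the spindle, read 8.74, 8.19 and 7.71, then 8.83, 8.64 and 8.20, then 8.01, 7.70 and 7.46. Both were lower in every postlactation array than in any lactation array, and they fell with the set block, Nusap1 1.87-fold and Tpx2 1.78-fold (adjusted p = 0.0148 and 0.0135). Kif23, a kinesin of the midzone between separating chromosomes, read 7.57, 7.81 and 7.27, then 7.79, 8.12 and 7.61, then 7.57, 7.61 and 7.42. Postlactation reached 7.61 in set 2 and lactation went down to 7.61 in set 3, so Kif23 was barely apart, 1.24-fold lower and not called. Kif20a, a kinesin of cytokinesis, and Kif11, the motor that pushes spindle poles apart, differed by -0.40 (SE 0.29) and -0.27 (SE 0.25), also without a call.

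Cenpf, Cenpe and Cenpa, of the kinetochore and centromere, gave no call in either fit. Cenpf read 7.99, 7.96 and 6.97, then 7.87, 8.56 and 7.51, then 7.51, 7.28 and 6.90. Its differences were -0.36, -1.27 and -0.61, with set 2 far from set 1. Cenpe, the kinesin that moves chromosomes to the spindle equator, read 7.41, 7.41 and 6.61, then 7.43, 7.50 and 7.08, then 7.09, 6.95 and 6.66. For Cenpe the lowest lactation value lay just below the highest postlactation value, and it differed by -0.44 (SE 0.26). Cenpa, the histone variant of centromeres, read 9.56, 9.19 and 8.68, then 9.32, 9.45 and 9.11, then 9.16, 9.19 and 8.70. Virgin 1 held its highest value, and Cenpa differed after weaning by -0.28 (SE 0.26).

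Other probe sets of the members were examined for agreement. Of 50 further probe sets, 29 in 20 genes lay above the dim level, of which 25 were lower and 4 higher in postlactation than in lactation. The other probe sets of Rrm2 differed by -1.41 and -1.56, that of Ccne1 by -2.10 and that of Ccna2 by -0.99, near or below those used. Kif11 was uneven, one further probe set differing by -0.86 and another by 0.03 against -0.27 for the probe set used. The 4 higher belonged to Top2a (0.19), Cenpa (0.39), Cdc20 (0.13) and Kif11. Bub1b differed little on another probe set as well (-0.16). For 9 members, Rrm2, Mcm2, Mcm3, Mcm5, Mcm7, Ccne1, Cdc20, Bub1b and Aurkb, the probe set used is of a class that may hybridise with related transcripts.

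In lactation against virgin mice the same genes were mostly higher, without a call. This comparison asks what differs while milk is made, and it shares its lactation arrays with the one above. Of 39 members 36 had a higher mean in lactation, with a median log2 difference of 0.40 for replication and 0.25 for mitosis genes, against 0.01 for all genes. By limma 0 members were called, as were 0% of all genes higher. With the set block 0 members were called, where 0.022% of all genes were called higher. Unadjusted p was under 0.05 in 2 members without a block and 21 with it, and in 328 and 1457 of all 18194 genes, in either direction.

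Within the sets the difference was uneven for mitosis genes. Their median was -0.02 in set 1, 0.32 in set 2 and 0.47 in set 3, while that of replication genes was 0.37, 0.44 and 0.46. Leaving out virgin 3 lowered both medians, to 0.19 for replication and -0.0017 for mitosis genes, and leaving out lactation 2 lowered them to 0.27 and 0.074. Without virgin 1, which stood apart in osteocyte markers, they were 0.36 and 0.37, and without lactation 1 the mitosis median was 0.41. In all 3 sets 24 of the 39 were higher in lactation (61.5%), 15 of replication and 9 of mitosis. The share was 10.4% of all genes and 15.3% of those above the dim level, and equal values within sets lower such shares.

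Mcm2 and Cdt1 were the 2 members whose lactation values all exceeded the virgin values, where 2.06% of all genes did so. Mcm2 was 1.53-fold higher in lactation (SE 0.26 log2, adjusted p = 1, and 0.171 with the set block), with 0.69, 0.52 and 0.64 in the sets. Cdt1 was 1.45-fold higher (SE 0.20, adjusted p = 1, and 0.144 with the block). Ccne1 and Tk1 were 1.52-fold and 1.51-fold higher, and among mitosis genes Birc5 was 1.51-fold and Mki67 1.42-fold higher. Ccne2 showed no common direction, at -0.96, 0.55 and 0.66. Tyms, Top2a and Kif11, at -0.08, -0.03 and -0.01, were the 3 without a higher mean in lactation.

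**Figure D3:**
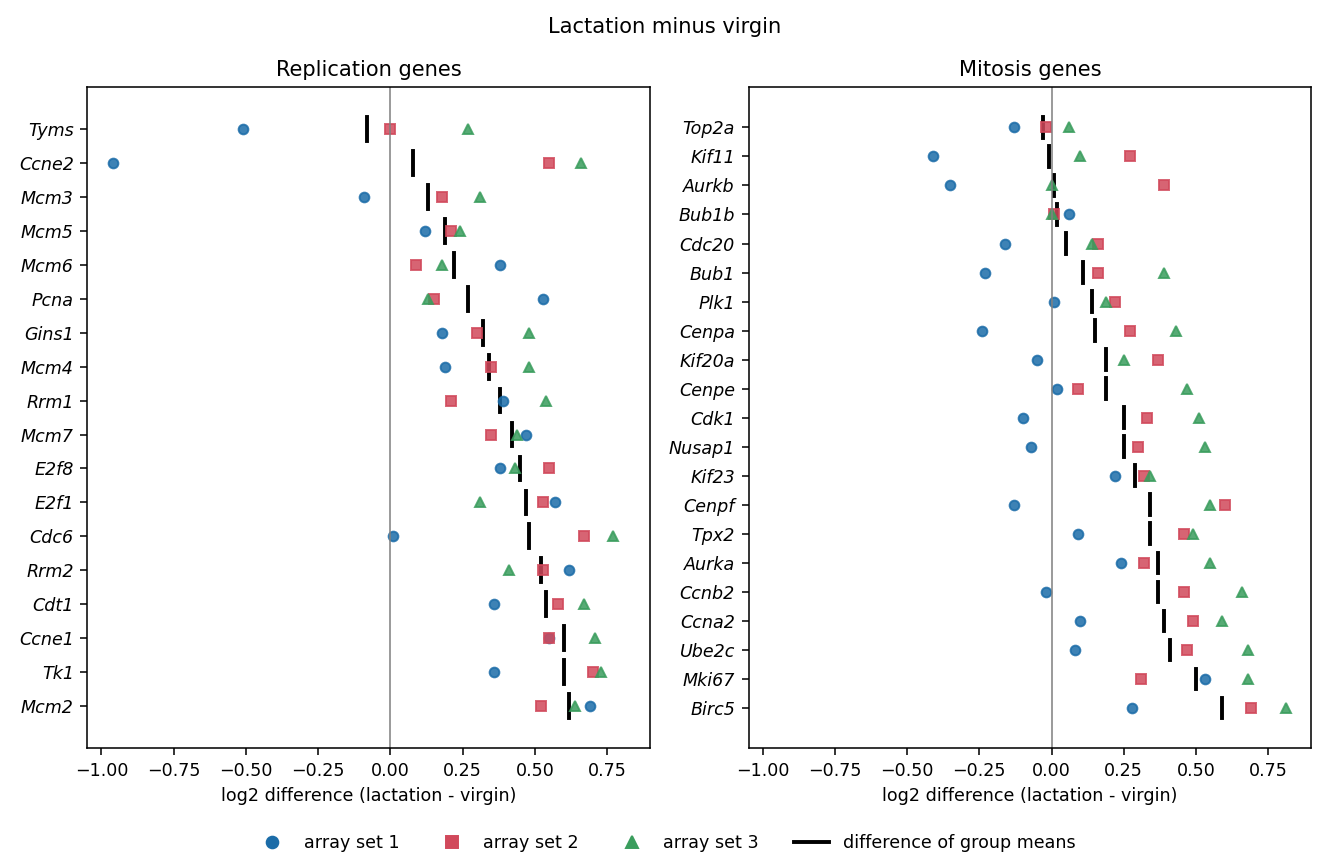
Log2 difference of lactation minus virgin for the 18 replication genes (left) and 21 mitosis genes (right), with a coloured point per array set and a black bar for the difference of group means. Bars run from -0.08 for Tyms to 0.62 for Mcm2, and no gene carries an asterisk, which would mark an adjusted p under 0.05.

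Postlactation was also set against virgin mice, which asks whether levels after weaning matched those of mice that had not bred. Mean levels lay below them. All 39 members had a lower mean in postlactation than in virgin mice, with a median log2 difference of -0.62 for replication and -0.39 for mitosis genes, against 0.00 for all genes. By limma 0 members fell, where 0.17% of all genes fell, and 14 members had an unadjusted p under 0.05, as did 381 of all 18194 genes in either direction. With the set block 2 members fell, Cdc6 and Ccne1, where 0.423% of all genes fell, and 28 members had an unadjusted p under 0.05, as did 1476 of all genes.

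Cdc6 was 2.95-fold lower than in virgin mice, with sets at -2.11, -1.34 and -1.23 (SE 0.18, adjusted p = 0.0325 with the set block and 0.211 without). Ccne1 was 1.92-fold lower, with -0.90, -1.27 and -0.65 (SE 0.12, adjusted p = 0.0483 with the block and 1 without). These 2 calls became 1 without virgin 1 or postlactation 2, and 0 without any of the other 7 arrays. Rrm2 was 1.87-fold lower (adjusted p = 0.0522 with the block) and Mcm7 1.44-fold (0.0536). Postlactation lay below virgin in every array for 11 members, 10 of replication and Mki67 of mitosis, where 1.49% of all genes did so. The 10 were Rrm1, Rrm2, Pcna, Mcm7, Cdc6, Cdt1, Gins1, Ccne1, Ccne2 and E2f8.

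For mitosis genes this difference was largest in set 1. Their median was -0.73, -0.26 and -0.08 in the sets, and that of replication genes -0.87, -0.64 and -0.37. Without virgin 1 the mitosis median was -0.23, without postlactation 2 it was -0.25, and without virgin 3 it was -0.73. Granulocyte precursor genes were also lower than in virgin mice, in 9 of 9 cases with a median of -0.64 and of -1.14, -0.59 and -0.23 in the sets, without a call. Their part in the members' difference was not tested. Kif23 was level with virgin mice, at 0.00, -0.20 and 0.15. Ube2c differed by -0.04 in set 3 and by -0.92 in set 1, and Cdc20 by 0.01 and -0.77.

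**Figure D4:**
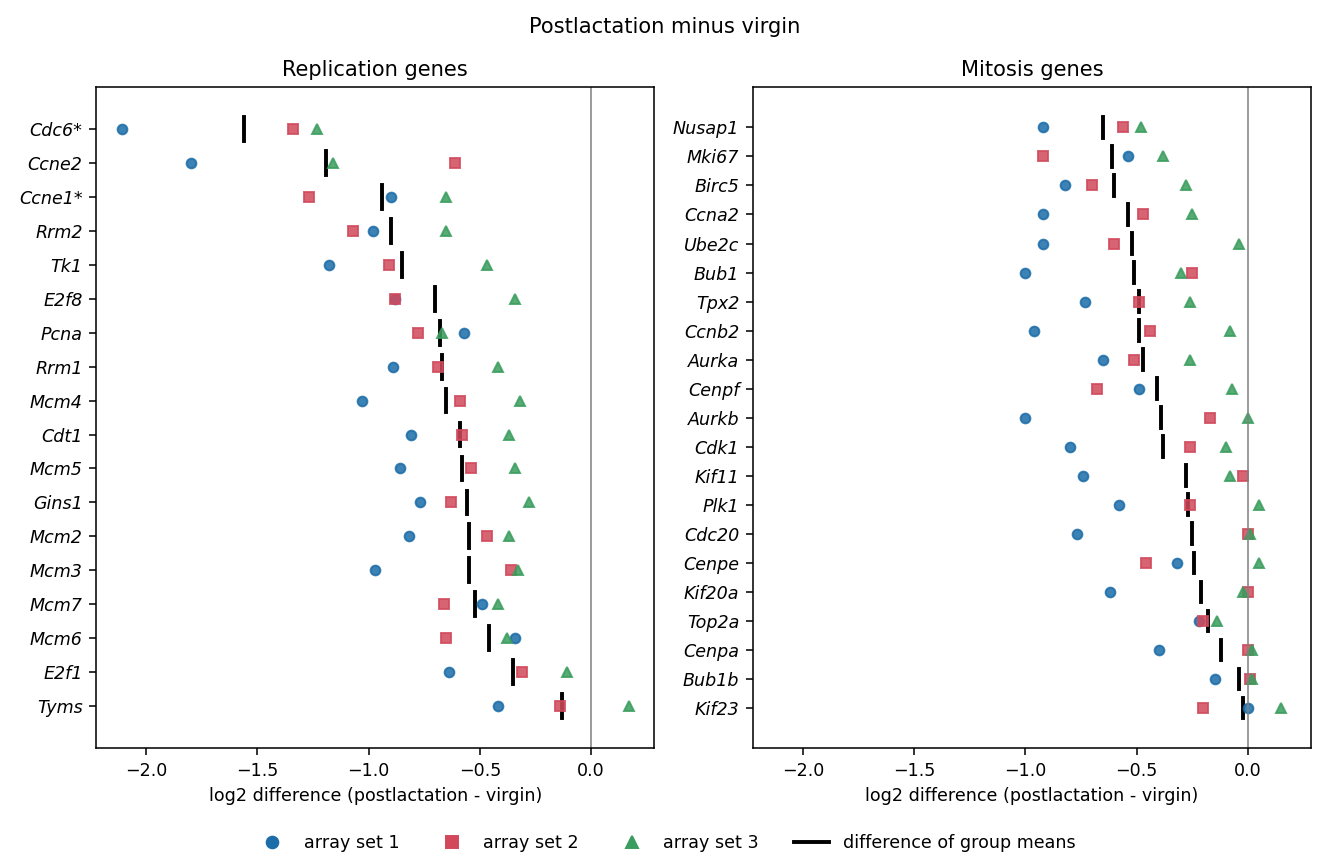
Log2 difference of postlactation minus virgin for the same 18 replication genes (left) and 21 mitosis genes (right), with a coloured point per array set and a black bar for the difference of group means. A single asterisk marks an adjusted p under 0.05 with the array set as a block, reached by Cdc6 and Ccne1; set 1 points lie leftmost for most mitosis genes.

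Other genes of the cell cycle were counted from lists chosen with earlier results of these data known. Of 33 other measured replication genes all had a lower mean in postlactation than in lactation, with a median of -0.64. By limma 0 fell, where 0.693% of all genes fell, and 18 fell with the set block, where 2.99% of all genes fell. By limma the unadjusted p was under 0.05 in 22 of the 33, and in 921 of all 18194 genes in either direction. Rfc4, of the clamp loader, fell 2.35-fold with the block (adjusted p = 0.00411), Brca1, of DNA repair, 2.36-fold (0.00762) and Clspn, the checkpoint adaptor claspin, 1.95-fold (0.0203). Of 45 other mitosis genes 43 were lower, with a median of -0.55. There was 1 fall by limma and 17 with the block, against the same shares of all genes. Cenpk, a kinetochore gene, fell 2.87-fold (adjusted p = 0.0274 by limma and 0.00226 with the block), and with the block Hmmr, a spindle protein, fell 2.05-fold (0.00121) and Cdc25b, the phosphatase that activates Cdk1, 1.94-fold (0.00411).

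Regulators upstream were less uniform. Of 12 transcription factors of dividing cells 11 were lower after weaning, with a median of -0.27. Tfdp2, a partner of E2F factors, fell 3.38-fold (adjusted p = 0.014 by limma and 0.0027 with the block) and E2f2, an activating E2F, 2.91-fold with the block (0.00307, and 0.0785 without). Of 7 G1 cyclins and kinases, Cdk4 fell 1.59-fold with the block (0.00745), and the list's median was -0.22. The median of cell cycle inhibitors was 0.01 and 9 of 17 were higher, while Rb1, Cdkn2c and Rbl1 fell with the block, 1.80-fold, 1.60-fold and 1.33-fold (0.00925, 0.0307 and 0.0418). Slbp, which binds histone mRNA, fell 2.00-fold with the block (0.00121). It was the 1 fall in a list of 16 histone and chromatin genes of which 6 were measured, H1f2, H2ax, H2az1, Hmgb2, Hells and Slbp, with a median of -0.11. Against virgin mice the set block called Pole2 (1.73-fold, adjusted p = 0.0325), Lig1 (log2 difference -0.58, 0.0274) and Slbp (1.70-fold, 0.0184), all lower after weaning, and in lactation against virgin it called none of these lists' genes.

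Markers of red cell precursors moved with the members. Of 12 measured erythroid genes, 12 fell from lactation to postlactation in both fits, with a median of -4.75. Of all genes 0.693% fell by limma and 2.99% with the block. In lactation 12 of the 12 erythroid genes had a higher mean than in virgin mice, with a median of 1.22 and no call. Against virgin mice 9 of the 12 fell in each fit, Alas2 only without the block and Tfrc only with it. The median was -3.49, and of all genes 0.17% fell by limma and 0.423% with the block. Averaged over the list and set against the array's median, the log2 level was 3.89, 4.22 and 3.22 in virgin, 4.98, 5.13 and 4.70 in lactation, and 1.10, 0.36 and 1.02 in postlactation arrays. Slc4a1, the red cell anion exchanger, was at 11.84, 12.71 and 12.30 in lactation and 7.17, 5.96 and 7.31 in postlactation. On the same scale the replication members averaged 4.34, 4.05 and 3.68, then 4.57, 4.44 and 4.15, then 3.40, 3.37 and 3.22. The mitosis members averaged 4.40, 3.87 and 3.40, then 4.38, 4.18 and 3.80, then 3.73, 3.54 and 3.28. The part of red cell precursors in the members' differences was not tested.

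Other markers went different ways after weaning, osteoclast and granulocyte precursor genes mostly lower, B lymphocyte precursor and mature neutrophil genes higher. With the set block 98 of all 18194 genes rose. Of 10 B lymphocyte precursor genes all had a higher mean, with a median of 1.37, and 2 of them rose with that block. Their mean level was 1.11, 2.63 and 2.49, then 1.71, 2.45 and 1.88, then 3.20, 3.60 and 2.88. Granulocyte precursor genes were lower in 8 of 9 cases with a median of -0.24 and no call, at 6.89, 6.02 and 5.77, then 6.40, 5.50 and 5.84, then 5.99, 5.50 and 5.48. Mature neutrophil genes were higher in 9 of 9, with a median of 0.62, and 1 of them rose with the set block. Of 10 osteoclast genes 9 were lower, with a median of -0.98 and 5 falls with the block, where 2.99% of all genes fell. Their mean level was 2.87 to 2.97 in virgin, 3.78 to 4.23 in lactation and 2.91 to 3.49 in postlactation. Like most members, all 10 had a higher mean in lactation than in virgin mice, with a median of 1.19 and 1 rise with the block. Against virgin mice their postlactation median was 0.28, with 7 higher and 3 lower. Osteocyte genes had a median of 0.04 and no call. Virgin 1 had the lowest osteocyte mean of the 9 arrays, 2.61, with the highest granulocyte precursor mean. Set against the array's median, the mean of all members was also highest among virgin arrays there, at 4.37 against 3.95 and 3.53. The medians subtracted were 4.32, 4.82 and 4.57, and before that subtraction virgin 2 was the highest. The part of these cell types in the members' differences was not tested.

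**Figure D5:**
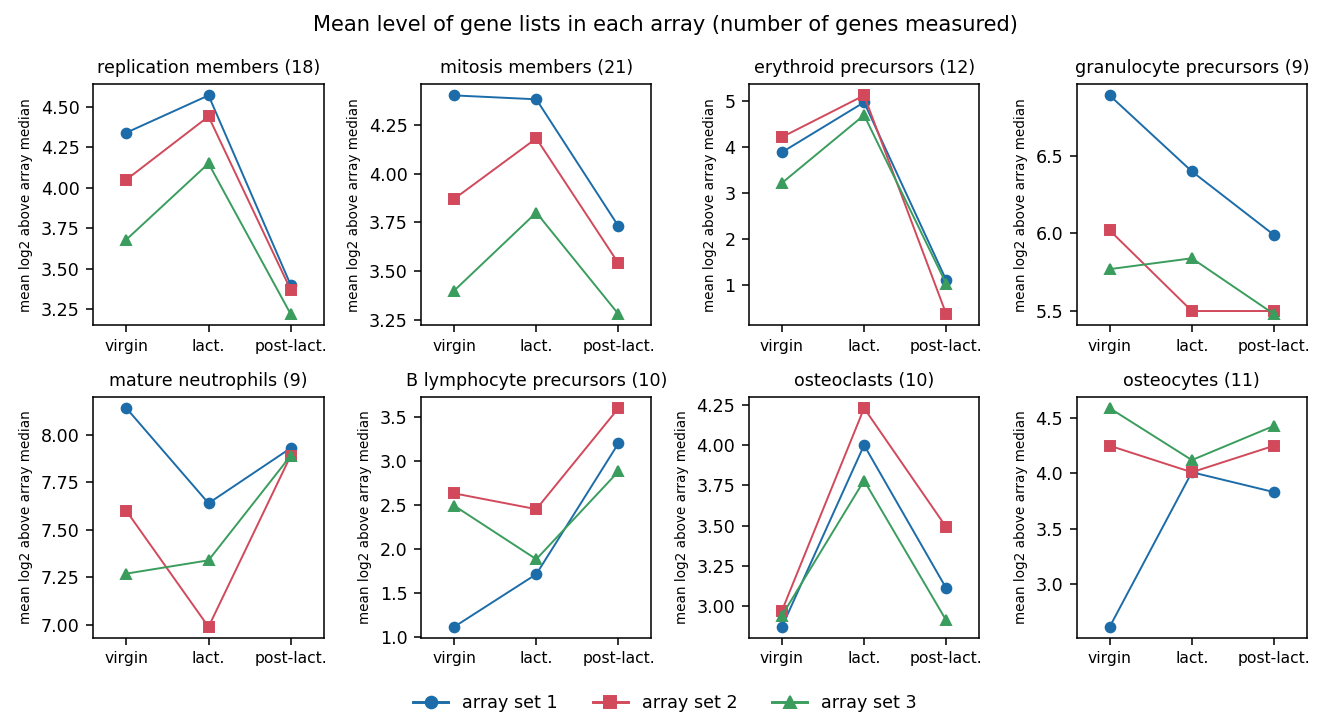
Mean log2 signal above the array's median for the replication members, the mitosis members and 6 lists of cell type markers in each array, with arrays of a set joined by a line and separate axes per panel. Replication members, mitosis members and erythroid precursors are lowest in postlactation in every set, while B lymphocyte precursors are highest there.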

How the data were processed

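RNA of 9 arrays was measured, 3 each from virgin, lactation and postlactation mice. The authors deposited log2 values for 45101 probe sets, made with RMA, per the submitters' processing notes. Version and annotation are not given in the sources used. Values ran from 1.55 to 14.9 with none missing. The table supplied for the array gave 1 gene for 34958 probe sets, several for 932 and none for 9211, and a gene was read from its probe set of highest mean. Arrays were assigned to sets from exactly equal values, which made up 36.1% to 44.1% of probe sets within sets 2 and 3, 2.50% to 2.72% within set 1, and at most 2 probe sets between sets. RMA fits arrays together, so such ties and set offsets may enter within-group spread.

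Groups were compared with limma 3.58.1 in R 4.3.3 (lmFit and eBayes without trend, group means, 6 residual degrees of freedom), adjusting by Benjamini-Hochberg over 18194 genes at 0.05, and again with the array set as a block (4 residual degrees of freedom). The members and lists were chosen with earlier results of these data known. All members are named. Array values are given for up to 3 of smallest p after weaning in each role list, and outside the members for up to 3 called genes a list. Alternatives changed the block, scaling, probe set, filter, variance model and arrays left out. The leave-outs of the blocked fit were added after seeing the data. Title numbers did not follow the sets: deviations of same-numbered arrays correlated from -0.41 to 0.67 over 9 pairs, against 0.47 to 0.73 for arrays of a set. Pairs from different sets ran from -0.47 to -0.13, and same-numbered pairs above 0 were of the same set. Set offsets thus enter these correlations, which cannot show whether the numbers pair samples.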

Additional observations from a re-analysis of the deposited data

How the results depend on the processing

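Directions held better than calls. After weaning, 3 members were called without a block, 9 with array medians centred, 9 with quantile normalization over all arrays, 23 with the array-set block and 24 with that block after quantile normalization, and 3 with genes above the dim level only or with a trended, robust variance. The count was 0 to 3 on leaving out each array and 0 without any of the 3 array sets. With the array-set block it was 8 to 26 on leaving out each array, 0 without set 1 or set 2, and 4 without set 3. Against virgin mice the array-set block called 2, and 1 after quantile normalization. On leaving out each array that count of 2 was 0 to 1, and it was 0 without any of the 3 sets. Lactation against virgin gave 0 in every alternative. With the replicate block, which uses the title numbers, the counts were 0, 3 and 0, although a pairing by number could not be judged. In that fit Cdt1 lost its call (adjusted p = 0.0891) and Ccne1 gained one (0.036).

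The median of replication genes in lactation minus virgin was 0.29 with the mean of all probe sets, 0.32 with the probe set of highest variance, 0.34 without set 3, and 0.19 to 0.50 on leaving out each array. For mitosis genes leaving out each array gave -0.0017 to 0.41, the lowest without virgin 3. In postlactation minus lactation the mean of all probe sets gave -0.82 for replication and -0.40 for mitosis genes. The mitosis median was -0.77 to -0.46 on leaving out each array, -0.55 without set 1 and -0.49 without set 2. In postlactation minus virgin it was -0.73 to -0.23 on leaving out each array. Members near 0 after weaning changed sign. On leaving out each array Tyms ran from -0.19 to 0.14, above 0 without lactation 2, postlactation 1 (0.017) or postlactation 2 (0.025). Bub1b ran from -0.17 to 0.078, the highest without lactation 3, and was 0.0082 without set 1. Cenpa became 0.11 with the mean of its probe sets and 0.39 with that of highest variance. Top2a became 0.020 with the mean of its probe sets and ran from -0.32 to 0.021 on leaving out each array, above 0 without lactation 2 (0.018) or postlactation 2. The causes of these shifts were not tested, beyond the fewer arrays or other probe sets used.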

Other observations

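The mean level of the members differed between array sets as well as between groups. Averaged over the 39 members and set against the array's median, the log2 level was 4.37, 3.95 and 3.53 in virgin, 4.47, 4.30 and 3.96 in lactation and 3.57, 3.46 and 3.25 in postlactation arrays of sets 1, 2 and 3. Set 3 was lowest in each group, and the postlactation arrays lay closer to each other than the virgin arrays did. Set 1 lay above set 2 on this scale only, as the medians subtracted were lowest in set 1 and highest in set 2.

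Members with a CHR match in the promoter window lay at both ends of the mitosis list. Mki67, with a log2 difference of -1.12 after weaning, and Ube2c, with -0.93, held one, as did Top2a, Bub1b, Cdc20 and Kif11, with -0.16, -0.06, -0.30 and -0.27. Aurka (-0.84), Ccnb2 (-0.86), Cdk1 (-0.63), Cenpf (-0.75), Plk1 (-0.40), Kif23 (-0.31) and Cenpa (-0.28) held one too. Birc5 and Nusap1, with -1.19 and -0.90, held neither CHR nor CCAAT in this window. Bub1 and Cenpe, with -0.62 and -0.44, held CCAAT without CHR. Among replication genes the E2F letters were found in windows of Cdc6 (-2.04), Cdt1 (-1.12), Mcm3 (-0.69), Mcm5 (-0.77), Mcm6 (-0.67) and Mcm7 (-0.94). Windows of Rrm1 (-1.05), Rrm2 (-1.42), Tk1 (-1.45), Ccne1 (-1.54), Mcm2 (-1.17) and E2f8 (-1.15) lacked them. So did those of Pcna (-0.95), E2f1 (-0.83) and the dim Tyms (-0.05). The motifs were set beside the differences after these values were seen, and no test was made.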
